A study of Mus musculus with 6 samples.

Results

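Called ATAC-seq peaks were examined at 9 mouse genes that write, maintain or remove DNA methylation or supply a cofactor for its removal: Dnmt1, Dnmt3a, Dnmt3b, Uhrf1, Tet1, Tet2, Tet3, Idh1 and Idh2. ATAC-seq uses the Tn5 transposase to cut and tag open DNA, so that a peak marks accessible chromatin. The genes were chosen by symbol, as 9 of the 49554 genes of the RefSeq table for mm10, and every peak overlapping one of them or the 20 kb on either side was taken. Across the 6 peak lists these peaks formed 83 regions, of 84592 regions genome-wide, where peaks of different lists that shared at least 1 bp were merged.

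Methylation of cytosine in CpG pairs is set by the de novo enzymes DNMT3A and DNMT3B and copied at replication by DNMT1, which UHRF1 brings to hemimethylated DNA. The TET enzymes oxidise methylcytosine and so start its removal, using 2-oxoglutarate, a metabolite made by the isocitrate dehydrogenases IDH1 and IDH2. In the blood system DNMT3A, TET2, IDH1 and IDH2 are known as genes recurrently mutated in clonal hematopoiesis and myeloid leukemia, and loss of Dnmt3a or Tet2 in mice is known to favour stem cell self-renewal.

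Libraries came from hematopoietic stem cells sorted from bone marrow of C57BL/6 mice at 12 weeks of age as lineage-negative, Sca-1+, c-Kit+, CD48- and CD150+ cells. In 3 libraries, labelled Dek_fl, the genotype was Dekfl/fl, with loxP sites in both copies of Dek, which encodes a chromatin-bound nuclear protein. In the 3 others, labelled Dek_cKO, the mice were Dekfl/fl,Tie2-Cre: they carried the same floxed alleles and a Cre transgene driven by control DNA of Tek (Tie2), which is active in endothelial and blood cells. The design text of the series describes sequencing in duplicate, while 3 libraries a group are labelled, and how the 3 relate to a duplicate is not stated. Whether each library had its own animals is not stated in the labels, so the p-values below speak only of spread among libraries, part of which may be technical.

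Some facts of the lists bear on every value below. There were 52451, 71555 and 23813 peaks in replicates 1, 2 and 3 of the libraries labelled Dek_fl and 70756, 73173 and 27170 in those labelled Dek_cKO, at a read depth that is unknown. Replicate 3 of both groups was called at another threshold, which makes it a processing batch with 1 library of each group. Absence from a list does not show that a region was closed. A peak at an end of Dek was called in all 6 lists, which does not check the deletion. At Tek a gene-body peak was called in 3 of 3 libraries labelled Dek_fl and in 0 of 3 labelled Dek_cKO, and the −log10 p of the peak at an end of Tek was 260, 576 and 56.6 in the former and 32.9, 20.5 and 8.59 in the latter. The transgene with Tek control DNA belongs to the second genotype by its label, so these values go against the labels. All directions given here are those of the labels. Of 12 stem cell marker genes, 11, 12 and 4 were called at a gene end in the libraries labelled Dek_fl and 11, 11 and 7 in those labelled Dek_cKO, and each was called in at least 1 list. Among the genes of the positive sorting markers, Kit was so called in 6 lists and Slamf1 (CD150) in 4. Ly6a (Sca-1) was so called in 1 list only, Dek_fl replicate 2. In all 6 lists, 4 of the 12 stem cell markers were so called, against 48.8% of protein-coding genes. That count was 0 for the 4 B cell, 4 T cell and 5 neutrophil and monocyte markers. For erythroid and endothelial markers it was 2 of 4 and 1 of 4. By single list, B cell markers reached 3 of 4 in Dek_fl replicate 2 and Dek_cKO replicates 1 and 2. T cell markers reached 2 of 4 (Dek_cKO replicate 2) and neutrophil and monocyte markers 3 of 5 (Dek_cKO replicate 3). These calls do not show the purity of the cells.

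The starts of these genes differed in sequence, and the windows that the results turn on are shown first. RefSeq (build GRCm38.p6, the same assembly as mm10) gave 15 promoter windows for the 9 genes, all of which matched by symbol, each from 250 bases before a transcript start to 50 bases after it. A window counted as covered in a library when a called peak overlapped it. In the sequences below, 5′ to 3′ on the strand of the gene, capitals mark matches on either strand to 1 of 8 searched motifs: the GC box GGGCGG, the NF-Y box CCAAT, the E-box of Myc and Usf CACGTG, the ETS motif CCGGAAG, the Runx motif TGTGGT, the motif AGATAA of the blood GATA factors, the Nrf1 motif GCATGCGC, and the E2F motif TTTGGCGC or TTTCCCGC. The first pair contrasts 2 starts of Dnmt1 on the minus strand, chr9:20952574-20952873, covered in 6 of 6 lists, and chr9:20959839-20960138, covered in 0.
Dnmt1 start 3: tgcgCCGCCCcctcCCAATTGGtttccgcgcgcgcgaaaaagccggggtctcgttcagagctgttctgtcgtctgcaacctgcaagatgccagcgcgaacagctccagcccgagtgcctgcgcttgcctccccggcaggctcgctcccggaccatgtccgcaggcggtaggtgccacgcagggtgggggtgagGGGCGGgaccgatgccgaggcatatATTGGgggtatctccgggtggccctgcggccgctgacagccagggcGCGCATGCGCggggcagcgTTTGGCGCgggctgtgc
Dnmt1 start 1: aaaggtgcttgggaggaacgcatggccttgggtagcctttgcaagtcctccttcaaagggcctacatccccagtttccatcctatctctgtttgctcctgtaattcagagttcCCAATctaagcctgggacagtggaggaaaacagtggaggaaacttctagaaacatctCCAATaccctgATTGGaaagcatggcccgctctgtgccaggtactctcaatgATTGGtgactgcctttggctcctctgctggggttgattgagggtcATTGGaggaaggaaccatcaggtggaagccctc

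The covered Dnmt1 window was 69.7% G and C with 33 CpG pairs, 0.91 of the number its base composition would give. It held 2 GC boxes, 3 CCAAT boxes, the E2F motif and a stretch that reads as the Nrf1 motif on both strands, the 2 matches overlapping. The uncovered window was 51.3% G and C with 2 CpG pairs, an observed to expected ratio of 0.10, and held 5 CCAAT boxes and no GC box. The window of Dnmt1 start 2, not shown, was covered in 6 of 6 lists by the same peak as start 3. It was 57% G and C with 12 CpG pairs, a ratio of 0.50, and held no GC box and no CCAAT box. The Nrf1 letters occurred in 2.71% and the E2F letters in 1.56% of all 32851 promoter windows of the table. Among the 15 windows shown by these genes the Nrf1 letters occurred in 2, both of Dnmt1, and the E2F letters in 1.

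The next set contrasts 3 windows of high GC content, in which calling differed. The outermost window of Dnmt3a, on the plus strand at chr12:3806730-3807029, was covered in 2 of 6 lists, its internal start at chr12:3891494-3891793 in 5 of 6, and the window of Tet2, on the minus strand at chr3:133544341-133544640, in 6 of 6.
Dnmt3a start 1: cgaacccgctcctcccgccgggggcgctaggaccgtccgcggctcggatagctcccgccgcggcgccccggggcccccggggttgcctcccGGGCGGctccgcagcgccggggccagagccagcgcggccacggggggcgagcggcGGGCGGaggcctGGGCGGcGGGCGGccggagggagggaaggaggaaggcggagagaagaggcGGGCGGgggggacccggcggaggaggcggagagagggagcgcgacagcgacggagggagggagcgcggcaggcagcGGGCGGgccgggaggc
Dnmt3a start 3: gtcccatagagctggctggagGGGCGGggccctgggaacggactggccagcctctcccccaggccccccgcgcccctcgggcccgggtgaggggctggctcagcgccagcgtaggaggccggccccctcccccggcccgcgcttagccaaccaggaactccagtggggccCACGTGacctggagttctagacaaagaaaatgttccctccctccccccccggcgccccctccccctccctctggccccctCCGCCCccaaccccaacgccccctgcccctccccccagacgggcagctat
Tet2 start 1: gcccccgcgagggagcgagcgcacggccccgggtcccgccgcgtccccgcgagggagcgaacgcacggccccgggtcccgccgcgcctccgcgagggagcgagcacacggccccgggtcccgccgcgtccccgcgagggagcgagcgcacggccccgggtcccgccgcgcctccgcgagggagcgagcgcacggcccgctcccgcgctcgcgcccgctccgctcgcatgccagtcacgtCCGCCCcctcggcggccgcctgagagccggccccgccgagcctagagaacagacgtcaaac

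The Dnmt3a outer window was 82.3% G and C and held 6 GC boxes, and the Tet2 window was 81.3% G and C with 57 CpG pairs and 1 GC box. The internal Dnmt3a window, at 74.0% G and C, held 18 CpG pairs, 2 GC boxes and the only E-box among the 15 windows. The E-box letters occurred in 7.15% of all windows. A last sequence is the second start of Uhrf1, on the plus strand at chr17:56304063-56304362, which was covered in 6 of 6 lists and held 3 GC boxes and 2 CCAAT boxes.
Uhrf1 start 2: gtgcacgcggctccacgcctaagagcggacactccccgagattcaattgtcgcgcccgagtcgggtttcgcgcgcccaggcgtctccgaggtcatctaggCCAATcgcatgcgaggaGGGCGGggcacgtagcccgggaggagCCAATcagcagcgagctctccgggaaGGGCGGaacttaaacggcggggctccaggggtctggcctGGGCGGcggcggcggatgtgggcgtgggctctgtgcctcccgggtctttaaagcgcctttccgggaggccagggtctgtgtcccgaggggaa

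Over all 15 windows, 13 held the GC box against 35.7% of all windows, 7 held the CCAAT box against 37.4%, and 1, the first start of Uhrf1, held the Runx letters against 16.8%. The ETS letters (8.86% of all windows) and the Gata letters (11.2%) were in none of the 15. These are matches of letters in 300 bases and not measured binding. The median GC content of the 15 windows was 68.3% and the median observed to expected CpG ratio 0.69, against 53% and 0.39 for all windows of the table on the chromosomes used.

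Accessible promoters were called at 8 of the 9 genes in every library. These genes, all but Dnmt3a, had a window covered in all 6 lists, as did 48% of protein-coding genes with a window. Counted by window, 11 of 15 were covered in all 6 lists, against 45% of the windows of protein-coding genes. By the annotated ends of the genes, which carry no strand and within 1 kb of which a peak was called at a gene end, 6 of 9 genes had one in every list, against 48.8% of protein-coding genes. The 3 others were Dnmt1, Dnmt3a and Idh2, whose outermost annotated ends had no peak in any list although starts inside their annotated span did. With the lists cut to the same length of 23809 peaks, 4 of the 9 genes had a gene-end peak in all 6, against 44.7% of protein-coding genes in the same lists.

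Among all windows of the table, coverage in all 6 lists was higher at higher GC content up to a point, from 3.31% of windows under 45% G and C to 17.2% at 45 to 55%, 53.4% at 55 to 65% and 72.3% at 65 to 75%. It was 66.0% at 75 to 80% and 39.0% of the 344 windows at 80% or more, of which 18.3% were covered in no list. The 2 outer windows of Dnmt3a and the window of Tet2 were the 3 windows of these genes in the last class, covered in 2, 0 and 6 lists. The first start of Dnmt1 was the only one of the 15 in the class of 45 to 55%.

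**Figure D1:**
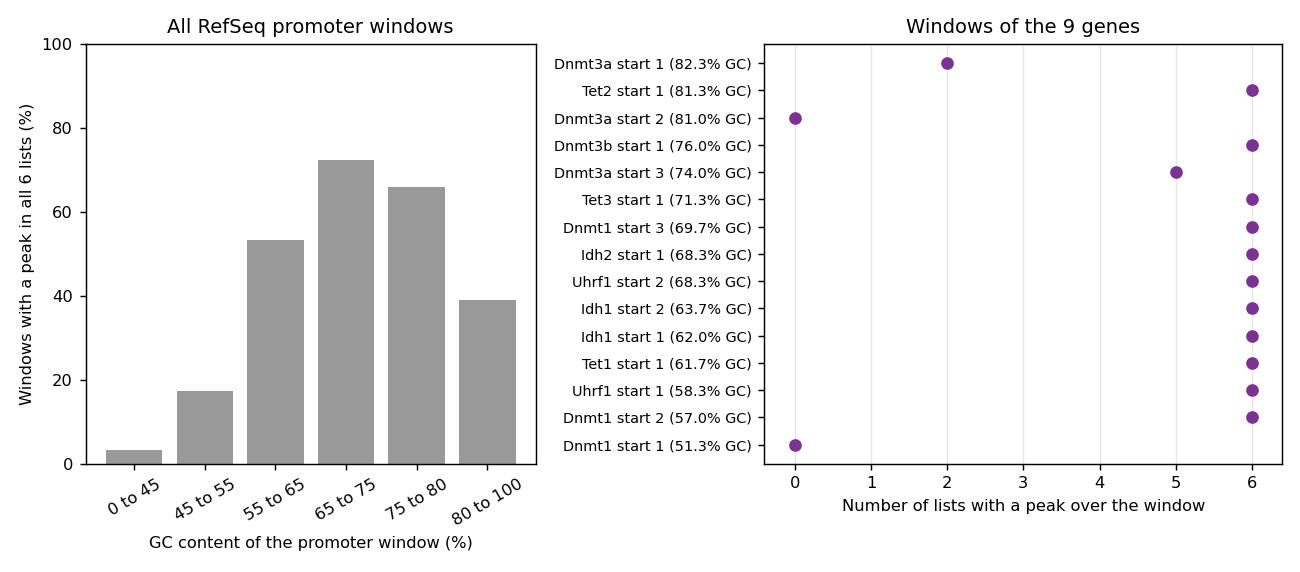
Left: percent of all RefSeq promoter windows with a peak in all 6 lists, by GC content class of the 300-base window in percent. Right: number of lists, of 6, with a peak over each of the 15 windows of the 9 genes, ordered by GC content; 11 windows are at 6 lists, and the uncovered ones are the first start of Dnmt1 and the second of Dnmt3a.

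The maintenance methyltransferase gene Dnmt1 (gene ID 13433, chr9:20907206-20959888, minus strand) had the highest peaks of the set at its starts. A region at chr9:20952057-20953382 lay over its inner starts, numbered 2 and 3, at positions 20952979 and 20952623, and was called in all 6 lists. Its fold over the local background at the summit was 9.64, 9.21 and 13.5 in the libraries labelled Dek_fl and 10.5, 11.1 and 17.4 in those labelled Dek_cKO, with −log10 q of 98.0, 182, 64.0, 192, 160 and 84.3 in the same order. Within its own list each of these peaks stood at a percentile of fold between 93.0 and 99.0, and the values of the groups overlapped. Fold values of different lists are on different backgrounds, so percentiles within a list are used from here on beside them.

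The outermost start of Dnmt1, at 20959888, was covered in no list. Dnmt1 is known to have a start used in oocytes upstream of the one used in somatic cells, but the RefSeq table used does not pair its starts with transcripts. In 5 lists the nearest edge of a peak lay 1225 to 1583 bp upstream of this start, in a region at chr9:20961113-20962309 with percentiles of 81.6 and 80.3 in Dek_fl replicates 1 and 2 and of 75.6, 74.6 and 29.5 in the libraries labelled Dek_cKO. That region was not called in Dek_fl replicate 3, where the nearest peak was 6711 bp downstream, at the inner starts.

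The rest of the Dnmt1 window held 9 regions. A region at an end of the ribosome biogenesis gene Ppan (chr9:20887779-20889456, also at an end of LOC115487308) was called in all 6 lists at percentiles of 70.6 to 93.4. A region at an end of the translation initiation factor gene Eif3g (chr9:20897967-20899041) was called in all 6, at 68.7 or more in replicates 1 and 2 and at 28.4 and 9.58 in replicate 3. The region chr9:20901416-20902285 was called in all 4 lists of replicates 1 and 2 and not in replicate 3. Near S1pr2, a sphingosine-1-phosphate receptor gene, chr9:20975461-20977211 was called in all 6 lists and chr9:20966289-20967423 in the 4 lists of replicates 1 and 2. The other 4 regions, 3 of them inside Dnmt1, were called in 1 to 3 lists.

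Uhrf1 (gene ID 18140, chr17:56303337-56323486, plus strand), whose product recruits DNMT1, had both of its starts under a single peak. The region chr17:56302980-56304844 had a fold of 7.58, 6.64 and 6.69 in the libraries labelled Dek_fl and of 6.98, 7.78 and 6.58 in those labelled Dek_cKO. Its percentile was 91.3, 80.7 and 34.3 in the former and 75.5, 78.5 and 27.7 in the latter, so the replicate 3 libraries were lowest in both groups and the groups overlapped. The summit lay 743 to 924 bp past the first start and 52 to 233 bp before the second, start 2 above, in each list.

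Around Uhrf1, regions at an end of the lipid droplet gene Plin3 (chr17:56289346-56291709) and of the histone demethylase gene Kdm4b (chr17:56325151-56326356) were called in all 6 lists, at percentiles of 34.7 to 76.5 and 82.4 to 99.3. The region chr17:56336891-56338232 was called in all but Dek_cKO replicate 3. It was the only one of the 83 regions called in Dek_fl replicate 3 and not in Dek_cKO replicate 3. No peak was listed within the Uhrf1 gene body in any list, beyond the region at its start.

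Of the de novo methyltransferases, Dnmt3a (gene ID 13435, chr12:3801559-3914443, plus strand) had the most regions of the 9 genes, 17, of which 8 were called in all 6 lists. At its outer starts, positions 3806980 and 3807160, the called peak lay just upstream, at chr12:3805951-3806762. Its fold was 5.12, 4.84 and 4.43 in the libraries labelled Dek_fl and 4.91, 6.02 and 5.24 in those labelled Dek_cKO, at percentiles of 63.7, 54.7 and 4.66 and of 47.7, 59.5 and 10.4. The peaks of Dek_fl replicate 3 and Dek_cKO replicate 1 reached into the first window by their last bases, and those of the other 4 lists ended 292 to 353 bp before the first start. The second window was covered in no list, and the next region downstream, chr12:3807850-3808907, was called in the 4 lists of replicates 1 and 2 at percentiles of 1.07 to 15.1.

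Dnmt3a is known to make a short form from an internal promoter. The third RefSeq start, at 3891744, lay in the region chr12:3890824-3893397, called in all 6 lists with a fold of 3.85, 4.52 and 6.24 in the libraries labelled Dek_fl and 4.81, 4.75 and 5.58 in those labelled Dek_cKO. A peak overlapped its promoter window in 5 lists, and in Dek_cKO replicate 3 the nearest peak edge was 514 bp downstream. The region joins the peak at the start with a peak downstream of it and takes the higher value. In Dek_cKO replicates 2 and 3 that value was of the downstream peak. The peak at the start in Dek_cKO replicate 2 had a fold of 4.33. Percentiles of the region were 37.2, 49.6 and 27.7 against 45.7, 41.3 and 14.2, and the groups overlapped.

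Several body and flank regions of Dnmt3a stood higher than its starts. The highest in replicates 1 and 2 was chr12:3791235-3792651, 14329 bp upstream of the first start, at percentiles of 98.0 and 97.7 in Dek_fl replicates 1 and 2, 99.1 and 97.9 in Dek_cKO replicates 1 and 2, and 53.3 and 72.2 in replicate 3. In replicate 3 the highest were 2 regions in the gene body, chr12:3855442-3856766 and chr12:3870711-3871824, with percentiles of 94.3 and 90.5 in Dek_fl and 95.4 and 93.1 in Dek_cKO. In replicates 1 and 2 the same regions were at 68.8 to 86.0 and at 55.3 to 70.9. At these regions the order of the libraries thus followed the list batch, and no group stood apart.

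The remaining Dnmt3a regions called in all 6 lists were chr12:3780043-3782156, upstream of the gene, at percentiles of 30.4 to 84.4, chr12:3833572-3835366, in the body, at 52.1 to 79.7, and chr12:3868311-3869046, in the body, at 1.03 to 26.2. A region at an end of the antisense gene Dnmt3aos, chr12:3861584-3862489, was called in Dek_fl replicate 2 and all 3 libraries labelled Dek_cKO. The region chr12:3823343-3823969 was called in all but Dek_fl replicate 3, and chr12:3925868-3926862 in the 4 lists of replicates 1 and 2. Another 5 regions were called in 1 to 3 lists.

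Dnmt3b (gene ID 13436, chr2:153649411-153687730, plus strand) had a region over its start, chr2:153648916-153651745, in all 6 lists. Its fold was 3.70, 5.51 and 7.90 in the libraries labelled Dek_fl and 6.74, 5.96 and 8.10 in those labelled Dek_cKO, at percentiles of 33.3, 65.7 and 50.6 and of 72.8, 59.0 and 47.7. Dek_fl replicate 1 was the lowest and the groups overlapped. A region at an end of Commd7, chr2:153631420-153633337, was called in all 6 lists at percentiles of 76.0 to 95.4. Between the 2, chr2:153638551-153640390 was called in all but Dek_fl replicate 3, and the body region chr2:153668173-153669179 and the downstream region chr2:153694307-153695067 in the 4 lists of replicates 1 and 2.

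**Figure D2:**
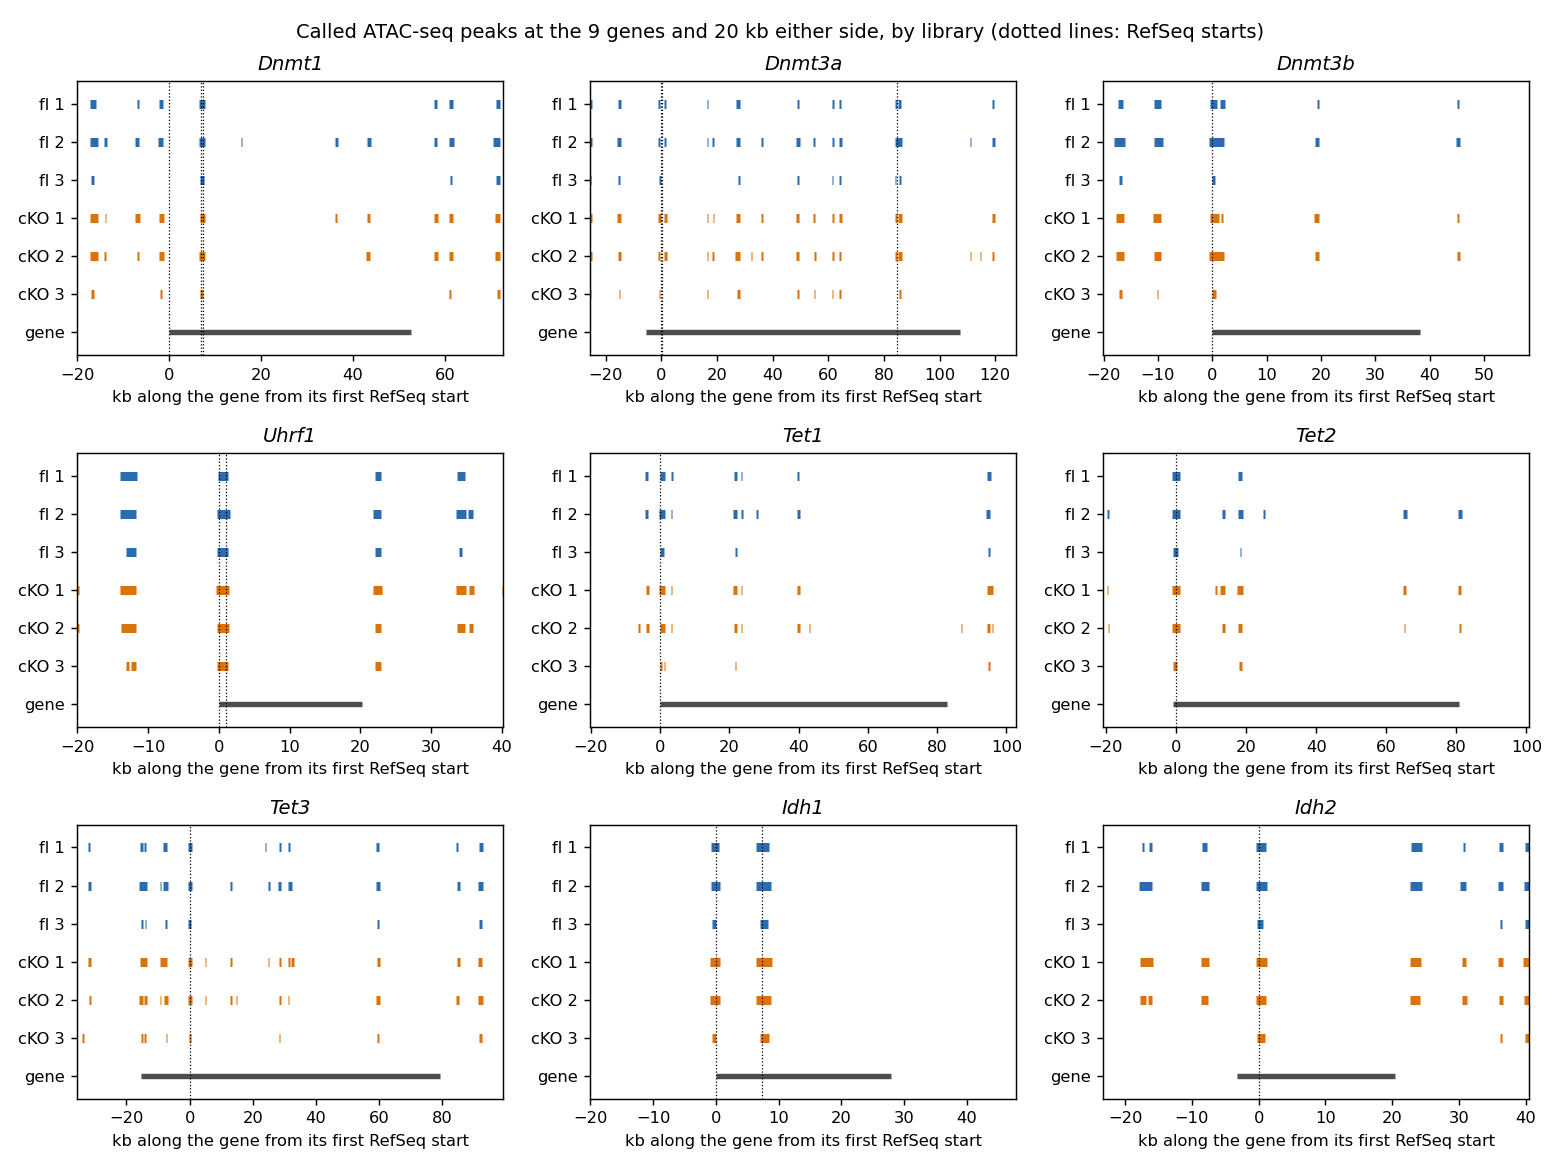
Called peaks in the window of each of the 9 genes, 1 row per library (blue, labelled Dek_fl; orange, labelled Dek_cKO; numbers are replicates) with the RefSeq gene extent in grey; the x axis is the distance in kb along the gene from its first RefSeq start, and dotted lines mark the RefSeq starts. At Dnmt1 the first start has no peak and the inner starts have one in all 6 lists, and at Dnmt3a the 17 regions spread over the gene body and its flanks.

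The 3 TET dioxygenase genes each had a peak over their start in all 6 lists. At Tet1 (gene ID 52463, chr10:62804570-62887469, minus strand) the region chr10:62885872-62887526 had a fold of 4.31, 4.04 and 5.67 in the libraries labelled Dek_fl and of 4.31, 5.09 and 6.30 in those labelled Dek_cKO. At Tet2 (gene ID 214133, chr3:133463677-133545136, minus strand) the region chr3:133543212-133545651 had a fold of 4.57, 3.96 and 6.76 and of 4.41, 5.41 and 6.45. At Tet3 (gene ID 194388, chr6:83362373-83457208, minus strand) the region chr6:83440800-83442266 had a fold of 6.55, 6.41 and 8.42 and of 7.61, 7.94 and 9.25. The groups overlapped at each of the 3, and Tet3 had the highest fold of the 3 genes in every list.

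Within their lists the Tet1 start stood at percentiles of 19.4 to 48.7, the Tet2 start at 26.2 to 53.5 and the Tet3 start at 56.9 to 82.8. The peaks were wide at Tet2, from 1293 to 2378 bp, where the median peak of a list was 526 to 971 bp. This was not particular to Tet2. The median width of the peaks over the starts of the 9 genes was 793 to 1741.5 bp by list, and at the internal start of Idh1 the peaks were 1285 to 2541 bp. The sequence of the Tet2 window shown above thus lay under a broad peak of low to middle fold within its list. By −log10 p the same peak stood at percentiles of 68.3 to 86.0.

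Inside Tet1, a region at an end of Gm51805, chr10:62865168-62866323, was called in all 6 lists at percentiles of 17.2 to 79.7, replicate 3 being lowest. The body regions chr10:62846962-62847888, chr10:62863456-62864104 and chr10:62883745-62884341 and the upstream region chr10:62890614-62891617 were called in the 4 lists of replicates 1 and 2 only. The highest region of the Tet1 window was at an end of the apoptosis regulator gene Ccar1, chr10:62791291-62793239, at 85.1 to 96.8 in all 6 lists. Another 4 regions were each called in a single list.

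Tet2 had 1 body region called in all 6 lists, chr3:133525144-133526860, which lay 17530 bp into the gene. Its percentile was 16.7, 20.7 and 8.03 in the libraries labelled Dek_fl and 35.0, 48.8 and 8.67 in those labelled Dek_cKO. The other 6 regions at Tet2 were called in 1 to 3 lists, 4 of them in Dek_fl replicate 2 and Dek_cKO replicates 1 and 2, including one at the 3′ end of the gene (chr3:133462708-133463851).

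Tet3 had 15 regions, 5 of them in all 6 lists. The body region chr6:83381293-83382591, 59087 bp into the gene, stood at percentiles of 84.4 to 97.9, above the Tet3 start in every list. A region at an end of the mitochondrial iron-sulfur gene Bola3, chr6:83348636-83350178, stood at 61.9 to 99.1. At the upstream end of the annotated gene, chr6:83455271-83457633 stood at 19.5 to 40.6 in replicates 1 and 2 and at 54.6 and 13.8 in replicate 3, and chr6:83448647-83451204, at an end of B230319C09Rik like the start region itself, at 38.8 or less. The regions chr6:83356011-83357388, chr6:83408577-83410616 and chr6:83472832-83473990 were called in the 4 lists of replicates 1 and 2, and chr6:83412760-83413531 in all but Dek_fl replicate 3. Another 6 regions were called in 1 to 3 lists.

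Idh1 encodes the cytosolic and Idh2 the mitochondrial NADP-dependent isocitrate dehydrogenase. Idh1 (gene ID 15926, chr1:65158616-65186479, minus strand) had 2 regions in its window, each over a RefSeq start and each called in all 6 lists. The first, chr1:65185740-65187453, is shared with an end of the neighbouring lipid kinase gene Pikfyve, and had a fold of 8.19, 8.34 and 12.5 in the libraries labelled Dek_fl and of 9.03, 10.5 and 15.6 in those labelled Dek_cKO, at percentiles of 88.4 to 96.2. The second, chr1:65177546-65180090, had a fold of 7.01, 5.98 and 10.1 and of 6.19, 7.46 and 10.9, at 66.2 to 87.1. The groups overlapped at both.

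Idh2 (gene ID 269951, chr7:80094845-80118608, minus strand) had a region over its start, chr7:80114053-80115807, with a fold of 5.73, 7.64 and 9.46 in the libraries labelled Dek_fl and of 8.18, 9.29 and 6.85 in those labelled Dek_cKO. Its percentile was 73.3, 90.1 and 67.6 in the former and 86.9, 89.4 and 31.8 in the latter, so Dek_cKO replicate 3 was far below the 5 others. The flanks of Idh2 held 6 regions and the gene body none besides the start. The flanking regions chr7:80074621-80075748, at an end of Gm21057, and chr7:80078699-80079481 were called in all 6 lists, at percentiles of 41.2 to 75.7 and 10.7 to 50.7. The regions chr7:80084133-80085227, chr7:80090798-80092669 (at an end of Zfp710), chr7:80122770-80123947 and chr7:80131222-80133253 were called in the 4 lists of replicates 1 and 2 only.

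To order the starts on one scale, the fold of each start region was ranked within each library among the 19683 regions called in all 6 lists, and the median percentile over the 6 libraries taken. The fold is a height at a summit and not a sum over a gene, so gene length does not enter it. Dnmt1 was first at 94.0, followed by the first start of Idh1 at 85.6, Idh2 at 64.1, the internal start of Idh1 at 54.1, Tet3 at 49.8, Uhrf1 at 46.3, Dnmt3b at 33.4, the outer start of Dnmt3a at 17.0, Tet2 at 15.2, Tet1 at 11.8 and the internal start of Dnmt3a at 11.3. By fold, the regions at the starts of Tet1, Tet2 and Dnmt3a were thus among the lower ones of the shared set in each library, none above 30.7. This does not hold for every column. By −log10 p within whole lists, the Tet2 start stood at percentiles of 68.3 to 86.0 and the Tet1 start at 29.2 to 78.3. The outer and internal start regions of Dnmt3a stood at 12.4 to 81.4 and at 27.3 to 80.7. For the internal start of Dnmt3a, the values of Dek_cKO replicates 2 and 3 were of a peak downstream of the start. Neighbours in this order had overlapping ranges over the 6 libraries except the first start of Idh1, at 79.8 to 94.8, and Idh2, at 20.3 to 74.3. In percentile points, Tet1 and Dnmt1 varied least, at 12.0 ± 3.24 and 94.3 ± 3.26 (SD, n = 6). The internal start of Dnmt3a, Tet3 and the first start of Idh1 followed, at 12.3 ± 4.69, 52.4 ± 4.80 and 86.3 ± 4.87. Uhrf1 and Idh2 varied most, at 44.9 ± 21.7 and 56.1 ± 20.6. Percentiles are bounded, which narrows the spread near either end of the scale. As normal scores, the form used for the test below, the same ranks of Dnmt1 ran from 1.29 to 2.15. Those of Tet3 ran only from −0.029 to 0.25, so the order of spread depends on the scale.

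**Figure D3:**
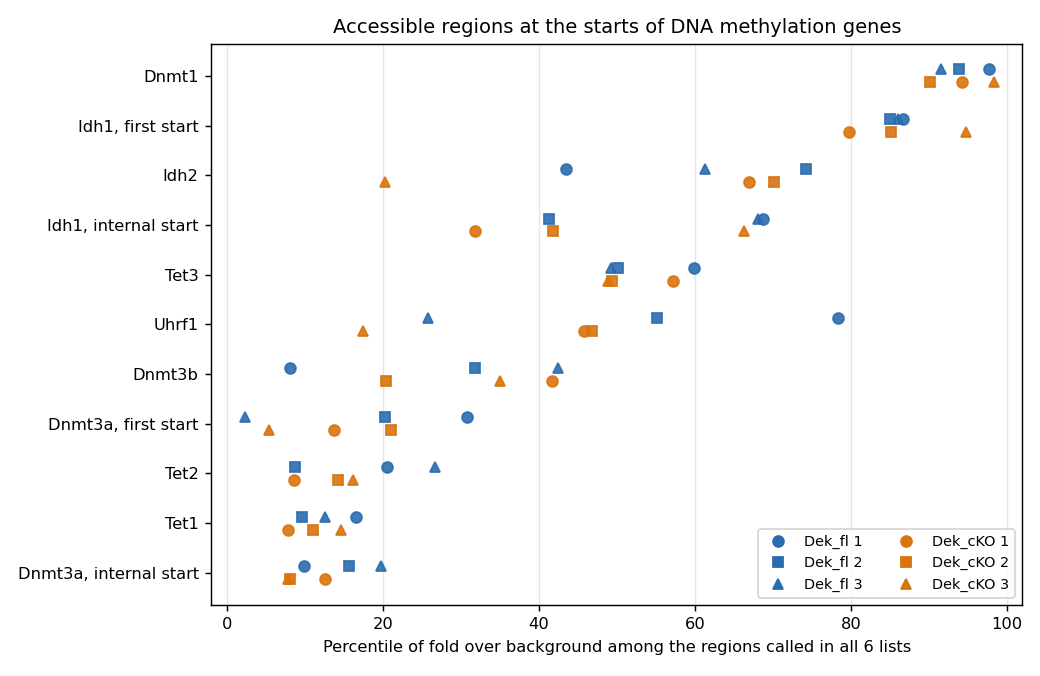
Percentile of fold over background, among the 19683 regions called in all 6 lists, of the region at each start (blue, labelled Dek_fl; orange, labelled Dek_cKO; the marker shape is the replicate), 1 row per start region in the order of the median. Dnmt1 and the first start of Idh1 lie at the top, Tet1, Tet2 and both Dnmt3a regions at the bottom, and the colours overlap in every row.

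The comparison of the groups asked whether accessibility at these genes differed between the genotypes as labelled. No region separated the groups by calling: 0 of 83 were present in every list labelled Dek_cKO and absent from every list labelled Dek_fl, as 0.104% of all regions were, and 0 of 83 the other way, as 0.00355% were. In replicates 1 and 2 alone, 2 regions were called in both libraries labelled Dek_cKO and in no other list (2.84% of all regions), and 0 in both labelled Dek_fl and in no other (0.322%). The 2 regions were chr17:56283195-56283593, 19744 bp upstream of Uhrf1, with a fold of 3.95 and 4.61, and chr6:83436536-83436949, in Tet3, 4729 bp from its start, with a fold of 2.40 and 3.36. In replicate 3 alone, 6 regions were called in the library labelled Dek_cKO and not in that labelled Dek_fl (6.84% of all regions) and 1 the other way (3.05%).

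Calling differed between the lists. Of the 83 regions, 32 were called in all 6 lists (23.3% of all regions), 17 in all 4 lists of replicates 1 and 2 and not in replicate 3 (25.7%), and 13 in a single list (16.1%). A further 10 were called in Dek_fl replicate 2 and Dek_cKO replicates 1 and 2 only, the lists with the most peaks (12.6%). By place, 6 of 7 regions at a gene end, 14 of 40 in a gene body and 12 of 36 in a flank were called in all 6. These places refer to the annotated extent of the gene alone, so that 6 of the 14 body regions lay within 500 bp of a RefSeq start, and the remaining gene-end region was the one at the 3′ end of Tet2.

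Peaks in the 9 windows numbered 59, 72 and 35 in the libraries labelled Dek_fl and 74, 79 and 41 in those labelled Dek_cKO, 55.3 ± 18.8 against 64.7 ± 20.6 (SD, n = 3 each). Within each batch the library or libraries labelled Dek_cKO were higher, yet as a share of each list the values were 1.13, 1.01 and 1.47 against 1.05, 1.08 and 1.51 per 1000 peaks, 1.20 ± 0.24 against 1.21 ± 0.26, which is less than the spread between libraries. With lists of equal length the windows held 35, 32 and 35 against 34, 35 and 38 peaks. The log2 ratio of the mean numbers, 0.22, became −0.018 when Dek_fl replicate 3 was left out and 0.46 when replicate 2 of that group was. Leaving out Dek_cKO replicates 1, 2 and 3 in turn gave 0.12, 0.055 and 0.47.

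**Figure D4:**
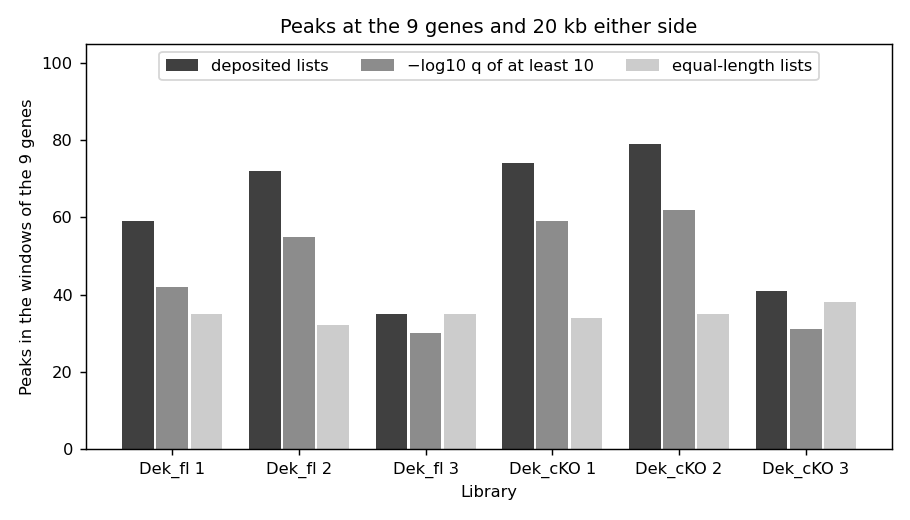
Number of called peaks in the windows of the 9 genes (each gene and 20 kb either side) by library, in the deposited lists, among peaks with a −log10 q of at least 10, and in lists cut to equal length. The deposited lists run from 35 to 79 with replicate 3 lowest in both groups, and the equal-length lists from 32 to 38.

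For the 32 regions called in all 6 lists, each library's ranks of the fold over the 19683 shared regions were expressed as normal scores. The groups were compared by limma, and p-values were adjusted by the Benjamini-Hochberg method across all 19683. None of the 32 passed at 0.05 in either direction, as was so for 0% of all shared regions in each. Of the 32, 0 had an unadjusted p under 0.05. Over the 19683 shared regions, 68 did so with the libraries labelled Dek_cKO above and 19 with them below. At so small a share, 0 of 32 does not set these genes apart. In a calibrated test without any difference, a share of about 0.05 would fall under that threshold. The share over all shared regions was far below it, so the fit was conservative here. High p-values from it do not show that the groups were alike. The lowest adjusted p of the 32 was 1.0. With the replicate number as a block, 0 of the 32 passed, against 0.00508% of shared regions as higher and 0% as lower. In the fit without the block, the 95% intervals of the 32 reached 0.64 to 1.46 score units to either side. Smaller differences could not be told from 0 in that fit, whose spread includes the gap between replicate 3 and the other lists. The intervals are not adjusted for the 19683 regions, so larger differences could also fail the adjusted test. With the block the standard error at the Uhrf1 start was 0.28 against 0.43 without it, and at the Tet3 start 0.27 against 0.28.

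Of the 32 score differences, Dek_cKO minus Dek_fl as labelled, 13 were positive and 19 negative, with a median difference of −0.076, against −0.018 over all shared regions. None was higher in 3 of 3 same-numbered pairs, as 10.4% of shared regions were, and 6 were lower in 3 of 3, as 12% were. At the starts the difference was 0.033 for Dnmt1 (95% interval −0.74 to 0.81), −0.46 for Uhrf1 (−1.43 to 0.51), −0.061 for the outer and −0.27 for the internal start of Dnmt3a and 0.21 for Dnmt3b. It was −0.091 for Tet1, −0.21 for Tet2, −0.033 for Tet3, 0.092 and −0.33 for the first and internal start of Idh1, and −0.21 for Idh2. Uhrf1 and Tet3 were among the 6 regions lower in every pair, but the difference for Uhrf1 was −0.11 without Dek_fl replicate 1, −0.18 without Dek_cKO replicate 3 and −0.83 without Dek_fl replicate 3.

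The extremes lay away from the starts. The largest positive difference among the 32 was at the Tet2 body region, whose score was −1.91, −1.93 and −1.70 in the libraries labelled Dek_fl and −1.49, −1.18 and −1.71 in those labelled Dek_cKO, a difference of 0.38 (95% interval −0.29 to 1.05), with the replicate 3 scores nearly equal. The largest negative difference was at an end of S1pr2 beside Dnmt1, chr9:20975461-20977211, with scores of −0.28, −0.47 and 0.029 against −0.69, −0.59 and −1.01, a difference of −0.52 (−1.21 to 0.16). This was the only one of the 32 whose groups did not overlap, 1 region as lower and 0 as higher, where 2.27% and 2.1% of all shared regions had no overlap. Its unadjusted p was 0.12 by limma and 0.069 with the replicate number as a block.

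**Figure D5:**
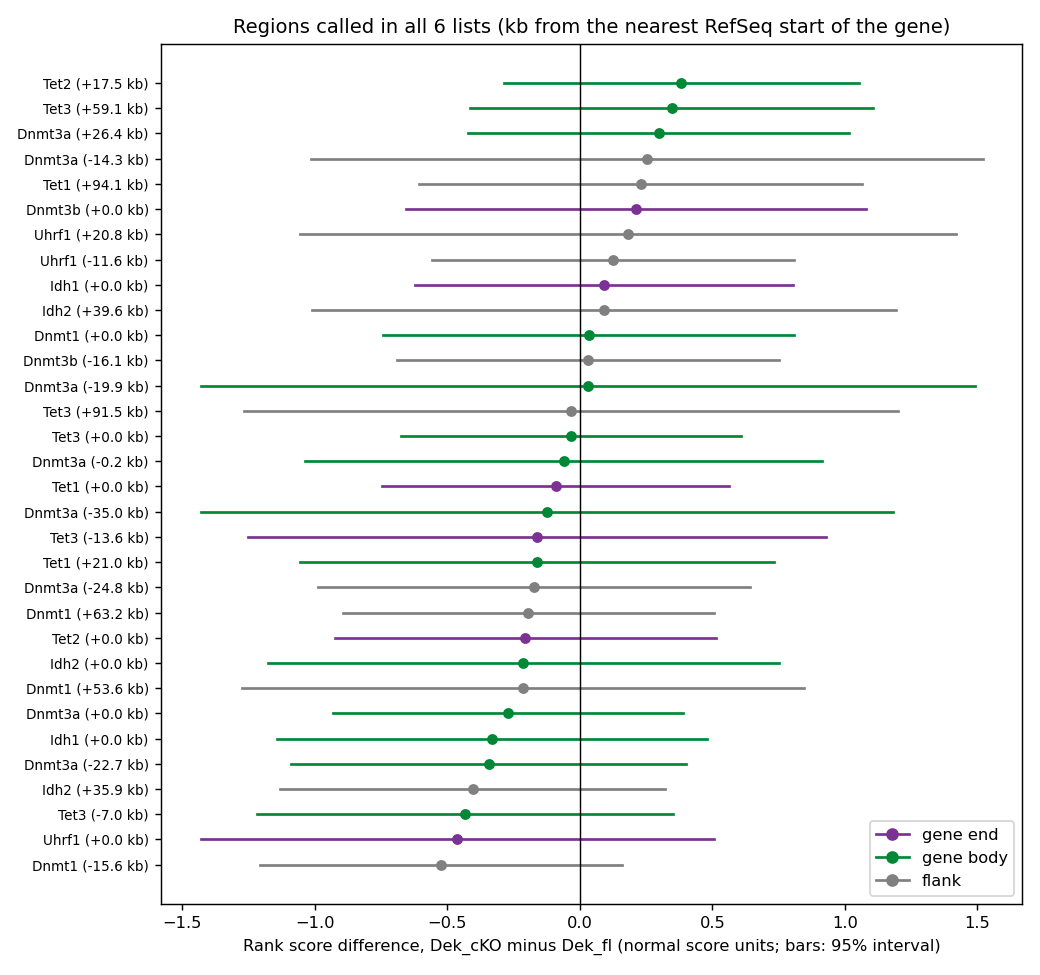
Difference in rank score, libraries labelled Dek_cKO minus Dek_fl in normal score units, with its 95% interval, for the 32 regions called in all 6 lists; colours give the place and the label gives the gene window and the distance in kb from the nearest RefSeq start of that gene. Differences run from −0.52 to 0.38, and every interval includes 0.

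A list of 39 other genes of the pathway, its readers and its supporting metabolism, all matched by symbol, was read for comparison. A gene-end peak was called in all 6 lists at 26 of the 39, in 1 to 5 lists at 11 and in none at 2, against 48.8% of protein-coding genes with one in all 6. The 2 without were Zbtb38, which encodes a reader of methylated DNA, and D2hgdh, which encodes the enzyme that removes D-2-hydroxyglutarate, although a promoter window of each was covered in all 6 lists. Of their 29 shared gene-end regions, 0 passed the rank test in either direction. The scores of the groups did not overlap at 1 of the 29, at Uhrf2, the paralog of Uhrf1, with the libraries labelled Dek_cKO lower, and at 0 with them higher. Over all shared regions these shares were 2.27% and 2.1%, so a single such region among 29 is near the background.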

How the data were processed

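The authors deposited a MACS2 narrowPeak list for each library rather than for pooled libraries. The submitters' processing notes name Bowtie2, Picard, MACS2 and the build mm10. Not given in the sources used here are tool versions, settings and any shift of reads for the cut of Tn5. The deposited columns used are the fold enrichment at the summit (a ratio to local background), the −log10 p-value and the −log10 q-value; these and the deposited score are the authors' own. The score equals 10 times the −log10 q-value (to 1 unit) for 100% of the peaks of replicates 1 and 2, but 10 times the −log10 p-value for 100% of those of replicate 3, whose lowest −log10 p-values are 5.07 and 5.02. Reads per library are unknown, so no counting interval could be given.

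Peaks of chromosomes 1 to 19 and X that overlapped by at least 1 bp were joined into regions. A region took the highest value among its peaks in a library, and percentiles were computed within that library's list. Places came from the RefSeq gene table (GRCm38.p6), which gives extents without exons. Strand and starts came from the RefSeq promoter windows, a choice added after seeing that the extents of Dnmt1, Dnmt3a and Idh2 had no peak at their ends. Ranks were tested with limma 3.58.1 in R 4.3.3 (lmFit and eBayes, Benjamini-Hochberg adjustment, threshold 0.05). The script was tested on simulated scores with independent noise and no gap between replicate 3 and the other lists. That check does not show what the fit could detect in these data. Deviations of same-numbered libraries from their group means correlated at 0.27, 0.52 and 0.74 over the 19683 shared regions. Dek_fl replicates 1 and 2 each correlated best with the other number of that batch (0.31 and 0.57). Replicate 3 of either group correlated at −0.66 to −0.35 with the other numbers of the other group. The values set replicate 3 apart but do not pair replicates 1 and 2 by number. The block and the counts over same-numbered pairs take that pairing from the labels alone. The genes, lists, motifs and tests were chosen with earlier results of these data known. All 9 genes are named, with their start regions and, one by one, other regions called in 4 or more libraries, in all libraries of a single group, or highest in their window. Alternatives were the replicate block, a batch term, ranks of −log10 p, replicates 1 and 2 only, each library left out, equal-length lists, a −log10 q of at least 10, other windows (5 kb) and gene-end distances (500 bp and 2 kb), and merging at 100 bp.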

Additional observations from a re-analysis of the deposited data

How the results depend on the processing

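None of the regions of the 9 genes passed the rank test under any of the 11 alternatives run: with the replicate block 0 passed, and likewise 0 with the batch term, with ranks of −log10 p with or without the block, in replicates 1 and 2 only, and without each library in turn. The count of regions called in all libraries labelled Dek_cKO and in none labelled Dek_fl, 0, became 2 in replicates 1 and 2 only and ranged from 0 to 2 when each library was left out; it was 1 without Dek_fl replicate 2 and 2 without Dek_cKO replicate 3. The count in the other direction was 0 under each alternative. The number of genes with a gene-end peak in every list was 6, but 4 with equal-length lists and 8 by promoter windows. At the start regions, no difference in rank score passed the test and several changed sign. For Dnmt1 it was −0.031 by ranks of −log10 p, with or without the replicate block, and −0.34 in replicates 1 and 2 only, where the first start of Idh1 was at −0.13 and Idh2 at 0.24. Leaving out each library in turn gave −0.21 to 0.22 for Dnmt1, −0.50 to 0.24 for the outer start of Dnmt3a, −0.14 to 0.46 for Dnmt3b, −0.18 to 0.0027 for Tet1, −0.10 to 0.052 for Tet3, −0.14 to 0.26 for the first start of Idh1 and −0.45 to 0.22 for Idh2; the cause was not tested. Without changing sign it gave −0.83 to −0.11 for Uhrf1, −0.42 to −0.049 for Tet2, −0.59 to −0.14 for the internal start of Idh1, −0.39 to −0.17 for the internal start of Dnmt3a and −0.64 to −0.39 for the S1pr2 region. The other 115 recomputed differences, of the start regions and the S1pr2 region, kept their sign and side of the threshold. The replicate block changed no call at these genes. With the read depth unknown and 3 libraries a group, 1 of them in each group from lists made with another threshold, small differences could not be resolved.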
